A study of Homo sapiens with 12 samples.

Results

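The AP-1, ATF3 and MAF factors described here are 9 of the 20030 genes in the deposited FPKM table (fragments per kilobase of exon, relative to all fragments mapped in that library). They were chosen by symbol, and all 9 had a row. They comprise the FOS family members FOS, FOSL1 and FOSL2, the JUN family members JUN, JUNB and JUND, the stress-induced factor ATF3, and the small MAF proteins MAFF and MAFG. All 9 had a mean FPKM of at least 0.1 in both cell lines and entered every fit. The values come from 12 mRNA-seq libraries of 2 established human acute myeloid leukaemia lines with MLL rearrangements (MLLr AML cells), MOLM-13, which also carries FLT3/ITD, and THP-1, which has wild-type FLT3. MOLM-13 cells received 0.5 μM and THP-1 cells 2 μM of Jiyuan oridonin A (JOA), an ent-kaurene diterpenoid, and control cells of each line received DMSO. Cells were collected after 48 h by the labels and methods, although a figure legend of the study gives a longer time, with 3 libraries in each of the 4 groups. Each line stands for itself alone, and line and dose differed together, so that a difference in response between the lines cannot be told apart from a difference in dose.

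AP-1 is a family of dimers of basic leucine zipper proteins. JUN proteins pair with each other, with FOS proteins and with ATF proteins, while FOS proteins need a JUN partner to bind DNA. Many of these genes are immediate early genes, switched on within minutes of a growth factor or stress signal, and in monocytic cells AP-1 is known for its part in differentiation and in the inflammatory response. The small MAF proteins lack a transactivation domain and pair with CNC factors such as NRF2, with which they bind antioxidant response elements.

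Several AP-1 genes are known to respond to AP-1, ATF and CREB factors through elements just upstream of their own start. RefSeq promoters on GRCh38.p14 were matched for 8 of the 9 members, 10 promoters in all. They were searched on both strands over the 250 bases before the start. The FOSL1 promoter was not analysed here. The 30-base windows that follow are shown because each holds, in capitals, an element of this kind. The JUN-type element TGACATCA was found before JUN and ATF3, the full cAMP response element TGACGTCA before JUND and MAFF, and its left part TGACG before FOS, FOSL2 and JUNB, which had neither full element. A separate TGACG also lay before JUN and JUND, and a second one before FOSL2. MAFG had no match to any of these elements. ATF3 and MAFF each had a further RefSeq start downstream, with no such element before it.
JUN, minus strand, chr1:58784096-58784125: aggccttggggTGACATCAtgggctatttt
ATF3, plus strand, chr1:212565273-212565302: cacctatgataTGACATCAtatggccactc
JUND, minus strand, chr19:18281804-18281833: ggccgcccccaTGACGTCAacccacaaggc
MAFF, plus strand, chr22:38201929-38201958: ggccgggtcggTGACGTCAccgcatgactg
FOS, plus strand, chr14:75278752-75278781: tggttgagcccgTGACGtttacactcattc
FOSL2, plus strand, chr2:28392780-28392809: ggagtctggggtTGACGtgagtgaatccac
JUNB, plus strand, chr19:12791337-12791366: gcttcctgacagTGACGcgagccgcctcct

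The first base of the element lay 67 bases before the start of JUN, 200 before JUND, 64 before FOS, 66 before FOSL2 and 137 before JUNB. For ATF3 and MAFF it lay 123 and 54 bases before the upstream start. Among 35116 promoters of the same length, 2.37% held TGACATCA, 1.65% held TGACGTCA and 21.2% held TGACG, which is also part of every TGACGTCA. The AP-1 site TGACTCA, present in 4.2% of promoters, had no match in these windows of the 8 members. The antioxidant response core TGACNNNGC, present in 10.9%, matched before JUND and the upstream start of MAFF. A TATA box with the letters TATAAA, present in 10.7%, lay close to the start of FOS and JUNB. A match describes these letters and not a bound site. GENCODE places some starts further upstream than RefSeq, and the windows of FOSL2, JUN and MAFF lie within the GENCODE span of the gene, that of FOS partly so.

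Libraries of one line correlated with r of 0.987 to 0.995 across genes on the log2(FPKM + 0.1) scale, and total FPKM ran from 291127 to 325023. The myeloid markers SPI1, CD33, LYZ, MPO, CSF1R, ITGAM, FCGR1A and CEBPA had a mean of at least 1 FPKM in every group (8 of 9 markers, the exception being CD14), as had HOXA9, HOXA10 and MEIS1, genes known to be high with MLL rearrangement. Erythroid and fibroblast markers summed to at most 0.209 and 1.07 FPKM. The T cell markers summed to 1.56 to 3.79 FPKM in MOLM-13 and at most 0.0257 in THP-1, and the B cell markers to at most 0.515 in MOLM-13 and 8.57 to 10.6 in THP-1, each through a single gene, CD3D or CD79B. Epithelial markers summed to 7.93 to 10.2 FPKM in MOLM-13 and 0.649 to 4.99 in THP-1. These sums differ between the lines, and their part in the differences between the lines was not tested.

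The lines held different levels of these factors before JOA. In control cells, all 9 members differed between the lines, 7 lower and 2 higher in THP-1, called by limma where the adjusted p was under 0.05 and the log2 fold change at least 0.58 in size. In the same comparison 44% of the 12635 genes tested were called, and the groups did not overlap in any of the 9 members, as in 74.8% of all genes. JUND, FOS and 5 others were lower in THP-1, while JUN and MAFG were higher. FPKM is scaled to each library, and in bulk libraries fewer expressing cells and less RNA per cell cannot be told apart.

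**Figure D1:**
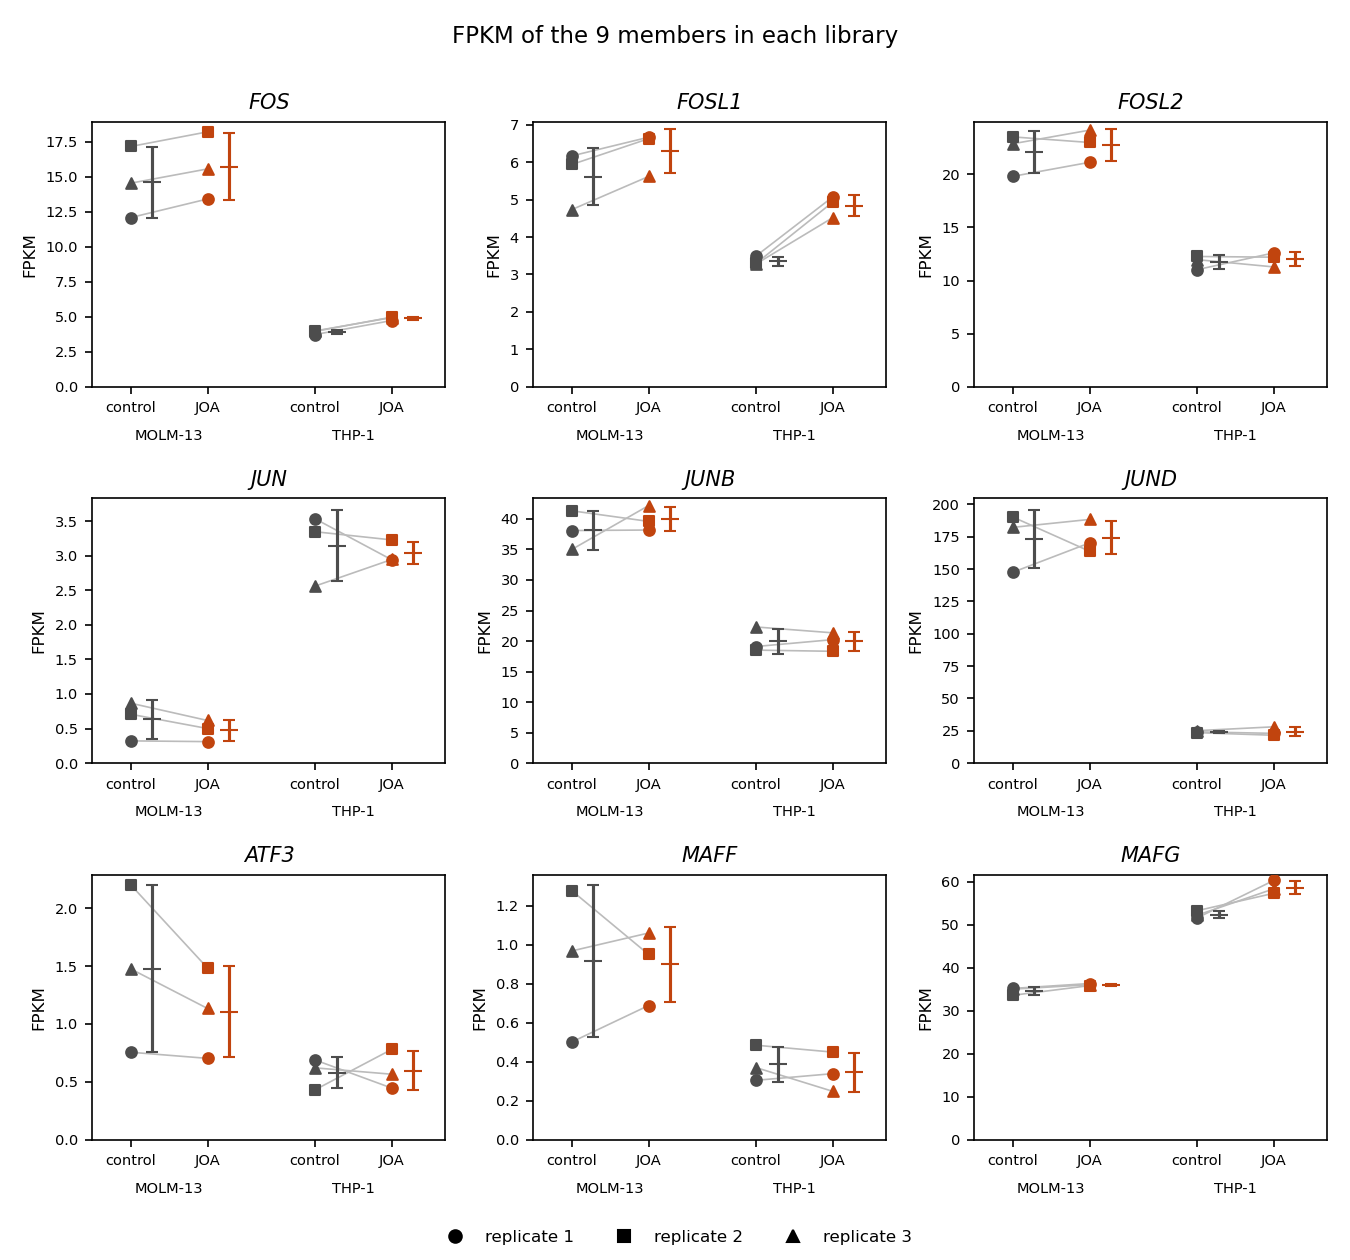
FPKM (linear axis from 0) of each member in the 12 libraries; symbols mark the replicate number, grey lines join control and JOA libraries of the same number, and bars beside the points give mean ± SD (n = 3). JUND sits at 147 to 190 in MOLM-13 and 21.5 to 28.1 in THP-1, and JUN at 0.311 to 0.866 in MOLM-13 and 2.56 to 3.53 in THP-1.

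Among the FOS family, FOS itself (chr14:75278774-75282230, plus strand), the classical immediate early partner of JUN, had 12.1, 17.2 and 14.5 FPKM in the MOLM-13 controls and 3.72, 3.95 and 3.98 in the THP-1 controls. The THP-1 values were tight and all below the lowest MOLM-13 value, a log2 difference of −1.87 (SE 0.121, limma adjusted p = 3.18e-06). FOSL1 (chr11:65892049-65900573, minus strand), which encodes FRA-1, lay at 6.17, 5.94 and 4.74 FPKM in MOLM-13 and 3.49, 3.30 and 3.28 in THP-1. Its log2 difference was −0.72 (SE 0.111). FOSL2 (chr2:28392448-28417312, plus strand), which encodes FRA-2, was the FOS family gene with the highest FPKM in both lines, at 19.8, 23.5 and 22.9 in MOLM-13 and 11.02, 12.3 and 12.0 in THP-1. The log2 difference of FOSL2 was −0.90 (SE 0.0822). FOSB, the remaining family gene, averaged only 0.227 FPKM in MOLM-13 controls.

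In the JUN family the lines diverged most. JUND (chr19:18279760-18281622, minus strand), the JUN protein usually present in resting cells, reached 147, 190 and 182 FPKM in MOLM-13 controls against 24.2, 23.6 and 25.1 in THP-1 controls. That is a log2 difference of −2.82 (SE 0.0951, limma adjusted p = 1.23e-07), the strongest of the 9 members. JUN (chr1:58780788-58784327, minus strand), the c-Jun gene, went the other way, with 0.322, 0.706 and 0.866 FPKM in MOLM-13 and 3.53, 3.35 and 2.56 in THP-1, a log2 difference of 2.22 (SE 0.291). JUNB (chr19:12791496-12793315, plus strand), often an antagonist of c-Jun, had 38.1, 41.3 and 35.0 FPKM in MOLM-13 and 19.1, 18.5 and 22.3 in THP-1, a log2 difference of −0.93 (SE 0.0907).

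As a result the makeup of the JUN family differed. JUND took 81.6% ± 2.12 (SD, n = 3) of the summed JUN family FPKM in MOLM-13 controls and 51.2% ± 0.898 in THP-1 controls. JUN took 0.292% ± 0.113 and 6.68% ± 1.35, and JUNB 18.1% ± 2.24 and 42.1% ± 2.24. The summed family level was 212 ± 23.7 FPKM in MOLM-13 and 47.4 ± 2.31 in THP-1. In the FOS family, FOSL2 took 52.0% ± 1.94 in MOLM-13 and 61.2% ± 1.15 in THP-1, whereas FOS took 34.2% ± 2.54 and 20.2% ± 0.261. None of these shares overlapped between the control groups, and each exact two-sided permutation test gave p = 0.1, the smallest value that 3 against 3 libraries allow.

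**Figure D2:**
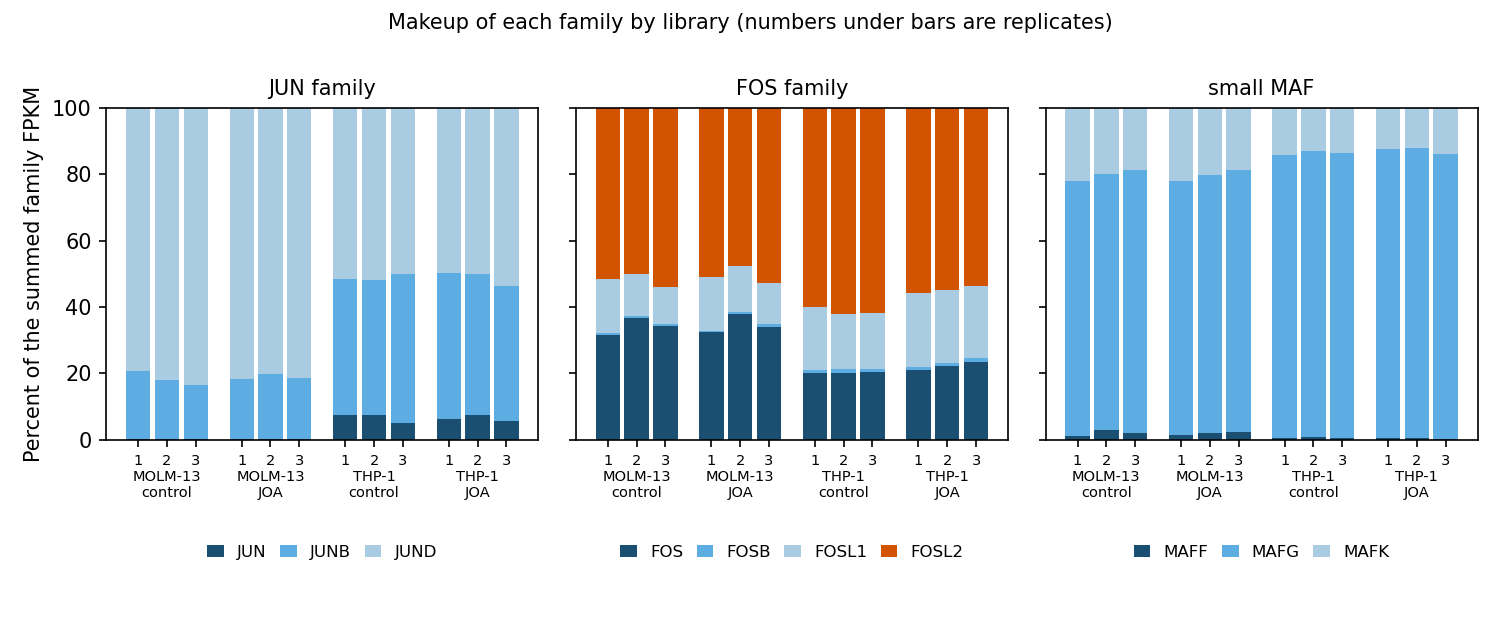
Percent of the summed family FPKM held by each gene in each of the 12 libraries, for the JUN family, the FOS family and the small MAF genes. JUND fills 79.3% to 83.5% of the JUN bars in MOLM-13 controls and 50.2% to 51.9% in THP-1 controls, and the FOSL1 section of the THP-1 bars is larger with JOA (21.5% to 22.4%) than in controls (16.7% to 19.0%).

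ATF3 (chr1:212565334-212620777, plus strand), which dimerises with JUN proteins and is induced by many stresses, was low, at 0.756, 2.20 and 1.48 FPKM in MOLM-13 controls and 0.689, 0.431 and 0.621 in THP-1 controls. The small MAF gene MAFF (chr22:38200767-38216511, plus strand) was lower still, at 0.501, 1.28 and 0.968 against 0.304, 0.485 and 0.370. Relative to their error, these were the smallest differences among the members, though not the smallest in size. The log2 differences were −1.12 for ATF3 (SE 0.336, limma adjusted p = 0.0164) and −0.998 for MAFF (SE 0.298, limma adjusted p = 0.0161). The call of MAFF was lost without MOLM-13 control 2, MOLM-13 control 3 or THP-1 control 1 (limma adjusted p = 0.0516, 0.0528 and 0.0542), and that of ATF3 without THP-1 control 2 (limma adjusted p = 0.0594). MAFG (chr17:81918270-81927714, minus strand), the dominant small MAF gene, had 35.2, 33.6 and 35.0 FPKM in MOLM-13 and 51.6, 53.3 and 52.2 in THP-1. Its log2 difference of 0.60 (SE 0.0515) lay just past the fold threshold. Without MOLM-13 control 2 it was 0.575, under that threshold, and the call was lost. MAFG took 77.6% ± 1.15 of the small MAF total in MOLM-13 and 85.8% ± 0.409 in THP-1, with most of the rest from MAFK.

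Ranked by FPKM, MOLM-13 control cells ran from JUND through JUNB, MAFG, FOSL2, FOS, FOSL1, ATF3 and MAFF down to JUN. The neighbours JUNB and MAFG, ATF3 and MAFF, and MAFF and JUN overlapped between libraries and are not separated by these data. THP-1 control cells ran from MAFG through JUND, JUNB, FOSL2, FOS, FOSL1, JUN and ATF3 down to MAFF, with FOSL1 overlapping JUN and ATF3 overlapping MAFF. Thus JUN was last in one line and level with FOSL1 in the other. Some annotated genes overlap members: HOOK2 lies opposite JUNB, PLA2G6 opposite MAFF, FLJ31356 opposite FOSL2, and SIRT7 on the same strand as MAFG. Whether strand was used in counting is not given in the sources used here, so a share of these reads could belong to the neighbour.

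With JOA, FOS, FOSL1 and MAFG were the members whose 3 THP-1 libraries all lay above the 3 controls, and in the fit without the replicate block FOSL1 alone had a limma adjusted p under 0.05. FOSL1 was the member with the largest difference, about 1.43-fold. It went from 3.49, 3.30 and 3.28 FPKM in controls to 5.08, 4.94 and 4.52 with JOA, with no overlap. The log2 difference was 0.52 (SE 0.0754, 95% interval 0.34 to 0.69, limma adjusted p = 0.0497). Since it fell short of the fold threshold of 0.58, FOSL1 was not called, and 0 of 9 members were, beside 0.134% of 12712 genes. On the adjusted p alone, FOSL1 was 1 of 24 higher genes, 0.189% of those tested.

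FOS had 3.72, 3.95 and 3.98 FPKM in THP-1 controls and 4.73, 4.97 and 4.94 with JOA. The groups did not overlap, and the log2 difference was 0.32 (SE 0.0674, limma adjusted p = 0.0866). MAFG had 51.6, 53.3 and 52.2 FPKM in controls and 60.4, 57.4 and 58.4 with JOA, again without overlap, with a log2 difference of 0.16 (SE 0.0435, limma adjusted p = 0.127). JOA lay above control without overlap in 3 of 9 members and in 14.6% of all genes tested.

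Replicate numbers were taken to pair the control and JOA libraries of each line. The fit with the number as a block called more genes in THP-1. It called 1.27% of genes instead of 0.134%, still 0 of 9 members, and 5.37% of genes were higher on the adjusted p alone. FOSL1 and FOS were among the latter, with limma adjusted p = 0.00950 and 0.0265, while MAFG had 0.0553. Without the block, the FOSL1 adjusted p from limma went to 0.0832 to 0.221 when any one of the 6 libraries was left out. Over all alternatives it ranged from 0.00901 to 0.221. With the block and one pair left out, the FOSL1 adjusted p stayed between 0.00901 and 0.0213, and that of FOS was 0.0394 without pair 1, 0.0917 without pair 2 and 0.0658 without pair 3.

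The remaining 6 members, like MAFG, passed neither fit in THP-1. JUND had 24.2, 23.6 and 25.1 FPKM in controls and 23.0, 21.5 and 28.1 with JOA, and JUNB 19.1, 18.5 and 22.3 against 20.2, 18.3 and 21.3. JUN had 3.53, 3.35 and 2.56 against 2.94, 3.23 and 2.94. Control and JOA libraries overlapped in each of these genes. The 95% interval of the log2 difference was −0.23 to 0.20 for JUND, −0.20 to 0.20 for JUNB, −0.33 to 0.25 for JUN and −0.12 to 0.19 for FOSL2. For the sparse ATF3 and MAFF it was far wider, −0.49 to 0.55 and −0.66 to 0.38.

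Within the FOS family of THP-1, the share of FOSL1 went from 17.5% ± 1.27 in controls to 22.0% ± 0.470 with JOA (n = 3 each), and that of FOS from 20.2% ± 0.261 to 22.2% ± 1.31. The share of FOSL2 went from 61.2% ± 1.15 to 54.8% ± 1.00. None of the 3 overlapped between the groups, and each exact two-sided permutation test gave p = 0.1, the smallest possible. JUN family shares overlapped, with JUND at 51.2% ± 0.898 and 51.1% ± 2.14. The FPKM of FOS and FOSL1, which did not overlap in control cells, overlapped with JOA, at means of 4.88 ± 0.131 and 4.84 ± 0.289.

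**Figure D3:**
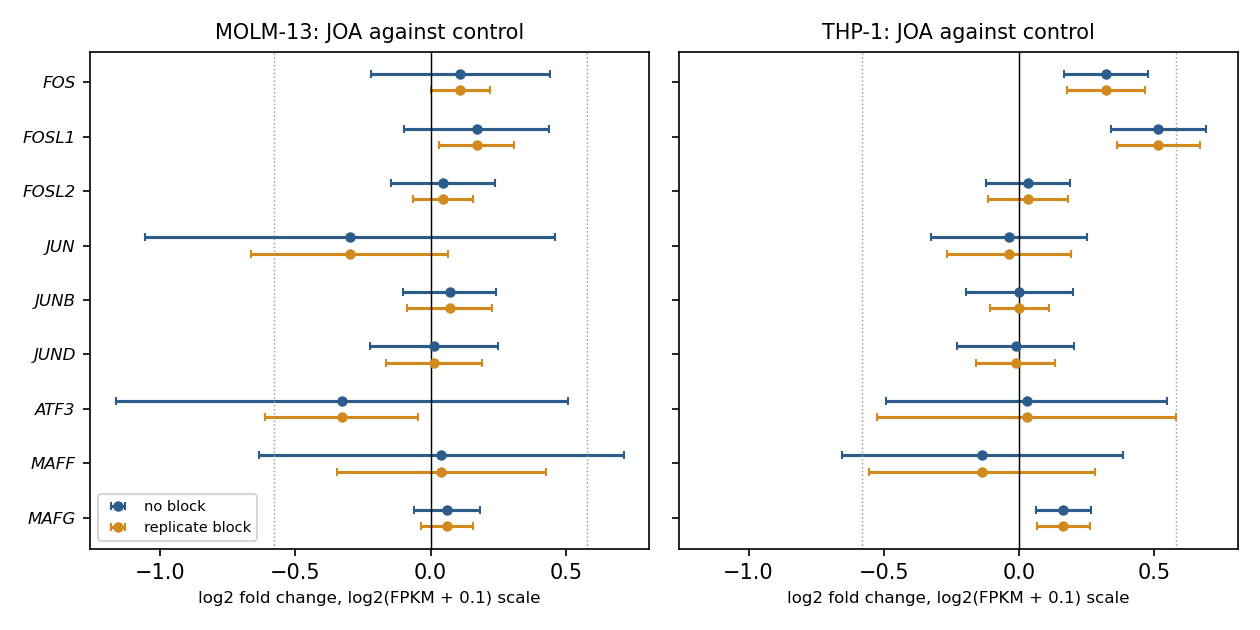
Log2 fold change of JOA against control with its 95% interval for each member, on the log2(FPKM + 0.1) scale, fitted without (blue) and with (orange) the replicate number as a block; dotted lines mark ±0.58. In THP-1 the intervals of FOS, FOSL1 and MAFG lie above 0 in both fits, while in MOLM-13 all 9 intervals of the fit without the block span 0.

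In MOLM-13 cells no member passed the test. The fit called 0% of 11693 genes, and 481 of them had an unadjusted p under 0.05, with the members' limma adjusted p at 1.00. FOSL1 had 6.17, 5.94 and 4.74 FPKM in controls and 6.67, 6.63 and 5.62 with JOA, higher in 3 of 3 pairs though the groups overlapped, with a log2 difference of 0.17 (95% interval −0.098 to 0.44). FOS was also higher in 3 of 3 pairs, at 12.1, 17.2 and 14.5 FPKM against 13.4, 18.2 and 15.6, a log2 difference of 0.11. MAFG, at 35.2, 33.6 and 35.0 against 36.4, 35.9 and 36.1 FPKM, was the one member whose groups did not overlap, with JOA above, as in 5.1% of genes. The MAFG difference was small, a log2 value of 0.060 (SE 0.0530).

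ATF3 and JUN were lower with JOA in 3 of 3 MOLM-13 pairs, as were 15.7% of all genes. ATF3 had 0.756, 2.20 and 1.48 FPKM in controls and 0.703, 1.48 and 1.13 with JOA, and JUN 0.322, 0.706 and 0.866 against 0.311, 0.500 and 0.616. The control and JOA groups overlapped in both genes, and most of the spread followed the replicate number. Their log2 differences of −0.33 (SE 0.365) and −0.30 (SE 0.330) had intervals that reached past −0.58. With the replicate block, the limma p before adjustment was 0.0235 for FOSL1, 0.0461 for FOS and 0.0283 for ATF3, and 0.393 to 0.444 after it, so 0 members were called in that fit too. JUND, the most abundant member, had 147, 190 and 182 FPKM in controls and 170, 164 and 188 with JOA, a log2 difference of 0.013 (95% interval −0.22 to 0.25). The intervals of FOSL2 and JUNB were likewise within ±0.25, and that of MAFF ran from −0.63 to 0.71.

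Taken over both lines, FOS, FOSL1 and MAFG were higher with JOA in 6 of 6 pairs, as were 7.52% of all genes. The mean log2 difference of the lines was 0.34 for FOSL1 (SE 0.0728, limma adjusted p = 0.0820), 0.22 for FOS (SE 0.0866, limma adjusted p = 0.292) and 0.11 for MAFG (SE 0.0292, limma adjusted p = 0.127). No member was called, beside 0.0238% of 12626 genes. With the block the adjusted p from limma was 0.00943 for FOSL1, 0.0136 for FOS and 0.0461 for MAFG. In that fit 0.269% of genes were called, again 0 of 9 members, and 4.1% were higher on the adjusted p alone, these 3 members included. Leaving out one pair from each line gave adjusted p values of 0.0456 to 0.106 for FOSL1, 0.0597 to 0.117 for FOS and 0.126 to 0.202 for MAFG. Only FOSL1 without pair 1 stayed under the threshold.

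The response of the members was not shown to differ between the lines. The interaction of line and JOA called 0% of genes, and 914 of 12626 had an unadjusted p under 0.05. FOSL1 had the largest interaction among the members relative to its error, a log2 value of 0.35 (THP-1 above MOLM-13, SE 0.146, limma adjusted p = 0.648). With the block 0.0475% of genes were called, with no member among them, and FOSL1 and FOS had limma adjusted p = 0.121 and 0.186. The higher FOSL1 in THP-1 therefore passed an adjusted p in one line and not the other without the difference itself being established.

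In MOLM-13 the replicate number accounted for more of the spread than JOA did in 8 of 9 members, all but MAFG. The same order held for the medians over all genes tested, 57.3% for the replicate number and 10.8% for JOA. The replicate number has more levels than the treatment, which favours it in such shares. Replicate 1 was the lowest library of both its groups for 5 of 9 members, FOS, FOSL2, JUN, ATF3 and MAFF, compared with 17.8% of all genes. The replicate number held 91.9% of the sum of squares of FOS, 87.4% of ATF3, 86.2% of FOSL2, 85.3% of JUN and 82.6% of MAFF on the log2(FPKM + 0.1) scale, against a median of 57.3% over all genes tested. For JUNB the replicate number and JOA were nearly even, at 18.3% and 15.8%, and for MAFG they held 24.7% and 65.5%. ATF3 spanned 2.91-fold and JUN 2.69-fold between the lowest and the highest of the 3 MOLM-13 controls, in which cells differed in no labelled condition.

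Other early-response and stress genes shared this order. In MOLM-13, replicate 1 was lowest in both groups for 12 of 18 other immediate early genes, among them EGR1, with 0.426, 2.66 and 2.16 FPKM in controls and 0.382, 1.61 and 2.16 with JOA. The same held for 12 of 13 stress genes known to respond to ATF4 and ATF3, including ASNS, CHAC1 and TRIB3, but for 1 of 15 NRF2 and small MAF target genes and 3 of 13 AP-1 target genes. What distinguished the replicate 1 samples is not given in the sources used here. Without both replicate 1 libraries, no member was called in MOLM-13, and the log2 differences of JUND and MAFF were −0.084 and −0.14.

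THP-1 showed the opposite split for 3 members. JOA held 95.3% of the sum of squares of FOSL1, 94.97% of FOS and 91.3% of MAFG, against a median of 23.4% over all genes, while the replicate number held 91.6% for JUNB and 71.0% for JUND. Across the 6 THP-1 libraries, FOS, FOSL1 and MAFG had Pearson r of 0.917 to 0.939 with each other. These are descriptions over libraries that share their treatment. All 3 genes had their JOA libraries above the controls, which by itself gives a high r. Within the controls, and again with JOA, replicate 1 was the lowest library for FOS and the highest for FOSL1. In MOLM-13, FOS correlated with FOSL2 (r = 0.822), ATF3 (0.815) and MAFF (0.846), and hardly with FOSL1 (0.0532).

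**Figure D4:**
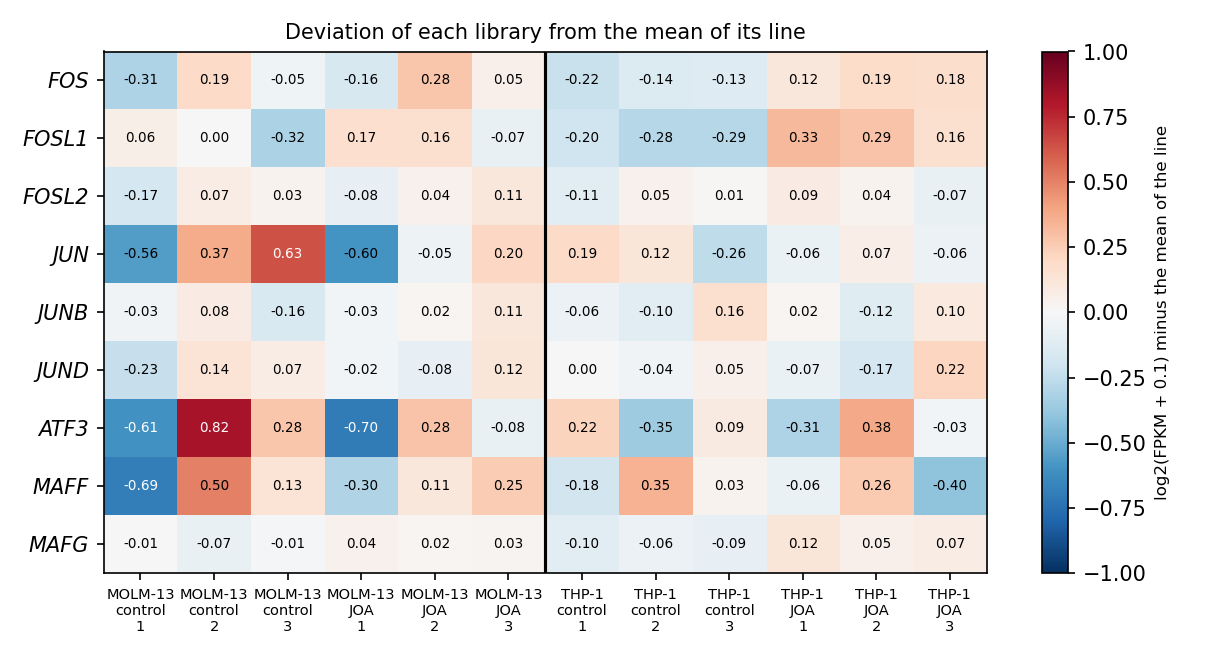
Log2(FPKM + 0.1) of each member in each library minus the mean of the 6 libraries of its line, with the line boundary in black. In MOLM-13 the replicate 1 columns are lowest for FOS, FOSL2, JUN, ATF3 and MAFF, and in THP-1 the JOA columns are all above 0 for FOS, FOSL1 and MAFG.

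The genes around these factors were followed through 8 lists. Of the other FOS, JUN and BATF genes, 0 of 4 in MOLM-13 and 0 of 5 in THP-1 were called with JOA, and the median log2 differences were −0.17 and −0.0078. BATF3, picked for the largest size in both lines, had log2 differences of −0.61 in MOLM-13 and −0.21 in THP-1, neither past the test. Among other ATF and CREB genes, DDIT3, which encodes the stress factor CHOP, had 10.7, 10.4 and 10.5 FPKM in THP-1 controls and 13.9, 13.3 and 13.9 with JOA. Its groups stood well apart, and the log2 difference of 0.38 (limma adjusted p = 0.0394) was below the fold threshold. In control cells DDIT3 was already higher in THP-1 than in MOLM-13, by a log2 value of 1.09.

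The small MAF gene MAFK averaged 8.32 ± 0.242 FPKM in THP-1 controls and 8.76 ± 0.685 with JOA, and NFE2L2, which encodes NRF2, 33.3 ± 1.24 and 35.1 ± 1.27, and neither passed the test.

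Target genes that NRF2 and small MAF proteins share had the largest median of the lists in THP-1. With JOA, 14 of 15 had a higher mean there, beside 56.7% of all genes, and the median log2 difference was 0.42, against 0.023 over all genes. In MOLM-13 12 of 15 had a higher mean, beside 52.4% of all genes, with a median of 0.13. In THP-1, 2 of 15 passed the adjusted p, beside 0.299% of all genes. Both were short of the fold threshold. They were SQSTM1, an autophagy adaptor, with a log2 difference of 0.53 (limma adjusted p = 0.0420), and SRXN1, sulfiredoxin, with 0.45 (limma adjusted p = 0.0497). With the block, 11 of 15 passed the adjusted p, beside 8.06% of all genes, and 2 were called, beside 1.27%. The 2 called were HMOX1, which encodes the haem-degrading enzyme, at 1.24 and OSGIN1 at 1.14. HMOX1 averaged 1.62 ± 0.384 FPKM in THP-1 controls and 4.02 ± 1.40 with JOA.

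Among 13 AP-1 target genes measured in THP-1, 9 had a higher mean with JOA, as had 56.7% of all genes, and the median was 0.18. PLAUR, the urokinase receptor, had 4.72, 5.23 and 4.38 FPKM in controls and 7.15, 7.44 and 6.79 with JOA. These groups were far apart, with a log2 difference of 0.57 (limma adjusted p = 0.0459). With the block, PLAUR, HBEGF, TIMP1, PLAU and TGFB1 (5 of 13) passed the adjusted p, beside 8.06% of all genes, and none was called. In MOLM-13 the median of this list was 0.048 and no gene passed.

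Of 18 other immediate early genes in THP-1, 14 had a higher mean with JOA (56.7% of all genes), with a median of 0.18. The block called 2 of 18, EGR1 (0.68, limma adjusted p = 0.00659) and KLF2 (1.10, limma adjusted p = 0.00793), beside 1.27% of all genes. EGR1 went from 2.99, 3.48 and 3.88 FPKM to 4.82, 5.33 and 6.64, without overlap, whereas the KLF2 groups overlapped, at 4.18, 2.73 and 1.15 against 7.43, 5.54 and 3.42. In the list of upstream kinases and serum response factors the medians were −0.015 in MOLM-13 and 0.050 in THP-1, and no gene was called in either fit.

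Stress genes of ATF4 and ATF3 had a lower mean with JOA in 12 of 13 cases in MOLM-13, where 52.4% of all genes were higher, with a median log2 difference of −0.20 and none past the test. In THP-1 the median was 0.016. TRIB3, a stress pseudokinase, was the 1 gene of 13 called with the block, beside 1.27% of all genes (log2 difference 0.64, limma adjusted p = 0.00534). Its interaction with line was 0.83 in that fit (limma adjusted p = 0.0462), the one call among the lists. ATF4 itself did not pass the test in either line, with log2 differences of −0.14 and −0.060.

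**Figure D5:**
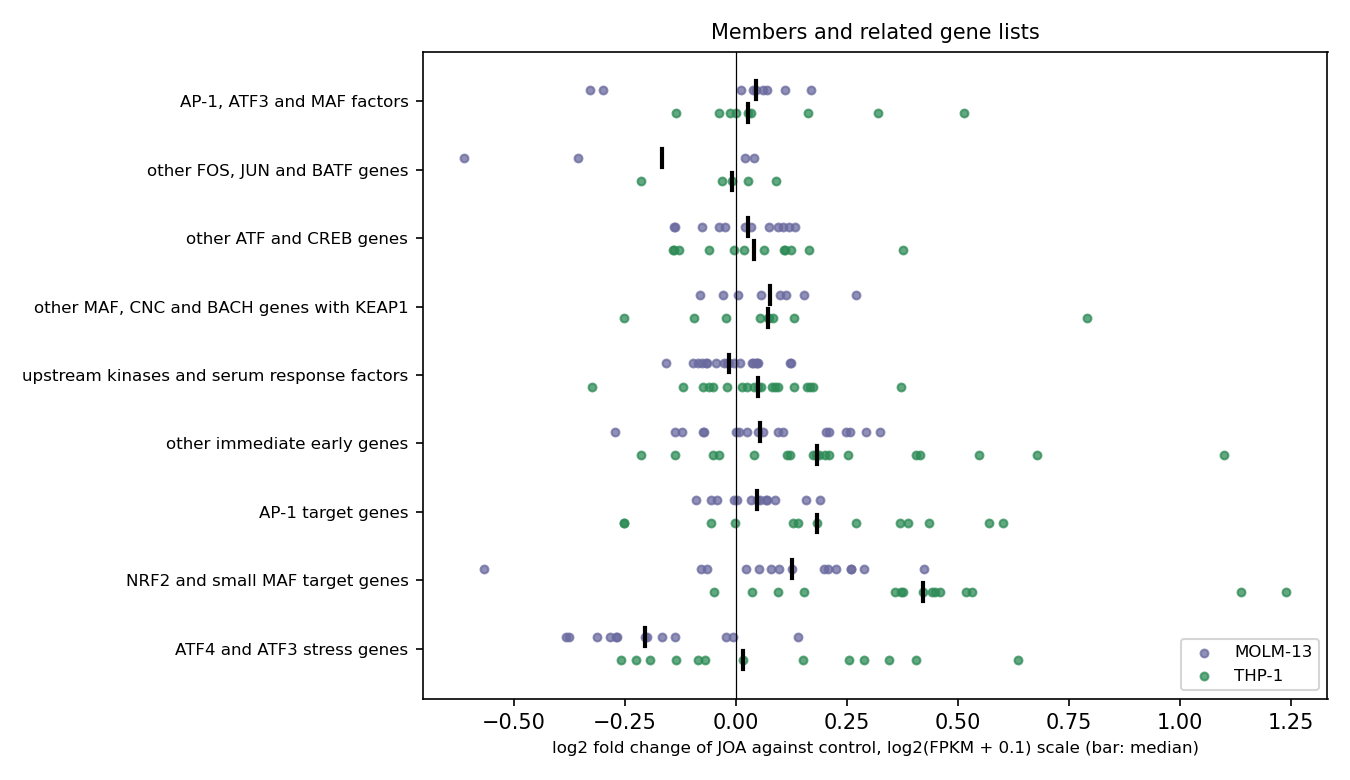
Log2 fold change of JOA against control, on the log2(FPKM + 0.1) scale, of every measured gene of the 9 members and of the 8 related lists, in MOLM-13 (violet) and THP-1 (green), with black bars at the medians. The NRF2 and small MAF target genes in THP-1 have the highest median (0.42), and the ATF4 and ATF3 stress genes in MOLM-13 the lowest (−0.20).

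Between the control lines, 7 of the 9 members were lower in THP-1, with a median log2 difference of −0.93, against 0.059 over all genes. The ATF4 and ATF3 stress genes also ran lower, with a median of −0.67, 9 of 13 lower and 6 called lower. The median was −0.36 for AP-1 target genes and −0.25 for other immediate early genes. Of the other ATF and CREB genes, 10 of 12 were higher, with a median of 0.32. The NRF2 and small MAF target genes had a median of 0.13, with 4 of 15 called higher and 0 lower. Among all 12635 genes tested, 3157 were called higher and 2402 lower in THP-1, and 53% had a higher mean. PLAU, CD44 and CCND1 were among the genes called lower in THP-1, and SPP1 and MMP9 higher. CCND1, SPP1 and MMP9 were low in both lines. Their mean FPKM was 0.446, 0.0316 and 0.190 in MOLM-13 controls and 0.257, 0.204 and 0.584 in THP-1 controls. NQO1, a quinone reductase, was also higher in THP-1, with a log2 difference of 1.97. Rescaled to a common total (TPM), the median of all genes moved to 0.17, and 9 of 9 members were still called.

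The genes whose levels followed each member most closely over the 12 libraries, after the mean of each line was subtracted, were named by Pearson r among 9239 or 9240 genes with at least 1 FPKM in each line. They were IRF3 for FOSL1 (r = 0.972), HPCAL1 for FOS (0.953), TMEM154 for FOSL2 (0.922), THAP6 for JUN (0.949), NXPE3 for JUNB (0.859), CNOT6L for JUND (0.936), DHX29 for ATF3 (0.918), IFI16 for MAFF (0.976) and XKR8 for MAFG (0.959). TNFAIP3, an inhibitor of NF-κB signalling, was second for JUN (0.931) and NFKBIA, another, second for JUNB (0.841). PGD, a pentose phosphate enzyme, was second for MAFG (0.954). In the FOS family, LANCL1 was second for FOS (0.950), DNAL4 for FOSL1 (0.955) and TRIM56 for FOSL2 (0.916). RASSF5 was second for JUND (0.896), NOA1 for ATF3 (0.902) and ITPR1 for MAFF (0.963). These values describe 12 libraries that share lines, treatments and replicate numbers. Each r was taken as a top value of that search, which favours high values, and was not tested.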

How the data were processed

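Libraries were made with a TruSeq Stranded mRNA kit and sequenced as paired ends. One table of FPKM was deposited by the authors, with a row per gene and a column per library. The submitters' processing notes name Trimmomatic, HISAT2, HTSeq and Cufflinks, and hg38, without versions. Total read depth is unknown, and no single ratio among low values gave a relative depth. Groups and doses follow the sample labels, which do not say that replicates came from separate cultures, so p-values measure the spread between these samples, which may be technical. All value columns were used.

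FPKM was used as deposited. Genes with a mean of at least 0.1 over the libraries of a fit were tested on log2(FPKM + 0.1) with limma 3.58.1 in R 4.3.3 (lmFit, eBayes with trend), with Benjamini-Hochberg adjustment. A fold change on this scale understates the change of low genes. A call required an adjusted p under 0.05 and a log2 fold change of at least 0.58 in size, or, for the interaction, the adjusted p alone. DESeq, used by the authors, needs counts and was not run. Family shares were compared by exact permutation tests (Python 3.11.15, scipy 1.17.1). The fit without the block was run on simulated libraries with independent noise and no replicate effect. The planted changes were larger than any JOA difference of the members, so that run does not cover differences of their size or the block.

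The main fits had no replicate block. Same-numbered control and JOA libraries deviated together (r = 0.407 to 0.580 in MOLM-13 and 0.297 to 0.541 in THP-1). The numbers were therefore taken to pair the libraries of each line, which the labels do not state. Differently numbered ones had r of −0.389 to 0.0676 and −0.439 to −0.0560. Deviations from a group mean sum to 0, which lowers these r once the same-numbered ones are positive, so they add no separate support. Between the lines same-numbered controls had r = 0.0757 to 0.180, and differently numbered ones −0.121 to 0.0517 under the same constraint. Only the fit of the control lines with the block took equal numbers as pairs between the lines.

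The members and the gene lists were chosen with earlier results of these data known. All 9 members were named in every comparison. From the lists, called genes and up to 4 per list and line with the largest change were eligible, and DDIT3, PLAUR, SQSTM1 and SRXN1 besides as genes with an adjusted p under 0.05. MAFK, NFE2L2 and CHAC1 were named after their values were seen. The 3 genes most like a member were ranked by Pearson r, and the first and second of them are named. The file's older symbols MKL1, CYR61 and CTGF stand for MRTFA, CCN1 and CCN2. Loci are from GENCODE on GRCh38 and promoters from RefSeq on GRCh38.p14. Alternatives covered the pseudocount, filter, scaling, trend, block, thresholds and each library left out. Those without both MOLM-13 replicate 1 libraries, with the block and one pair left out, and with all 12 libraries as the scaling reference were chosen after seeing the data. Some list genes are not reported here.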

Additional observations from a re-analysis of the deposited data

How the results depend on the processing

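In THP-1, the 17 genes called became 8 with a pseudocount of 1, 0 without a filter, 1 without a trend, 51 in one fit on all 12 samples, 82 at an adjusted p under 0.1 and 0 to 1 with a library left out. The 1 member under the adjusted p became 0 with a pseudocount of 1, without a filter, without a trend, with each library's median log2 ratio set to 0 and with any library left out, and 2 at an adjusted p under 0.1. In MOLM-13, 0 genes became 1 without a filter. Over both lines, 3 genes became 0 with a pseudocount of 1, 5 with TPM, 19 at an adjusted p under 0.1 and 0 to 8 with a library left out, and the 0 members under the adjusted p became 1 at 0.1. The interaction count of 0 became 1 with a pseudocount of 1, with TPM or with the median ratio at 0, and 3 without a filter. The causes were not tested.

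With the replicate block the counts were 161 genes and 2 members under the adjusted p in THP-1, 6 genes for the interaction, and 34 genes and 3 members over both lines. With a pair also left out they were 162, 207 and 222 genes (without pair 1, 2 and 3) and 1 to 2 members in THP-1, 0 to 1 genes for the interaction, and 0 to 15 genes and 0 to 1 members over both lines. Called members were 0 in every JOA fit. In control cells a block on the replicate number, shared by both lines, left the calls of all 9 members in place. MAFF was not called there with a pseudocount of 1 (log2 difference −0.45) and fell below a filter at a mean of 1 FPKM, and 7 to 9 members were called with a library left out.

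Members with log2 differences near 0 changed sign in some fits. In THP-1, JUND was 0.012 with TPM and JUNB −0.026 with the median ratio at 0. With 1 library left out, the ranges in THP-1 were −0.012 to 0.078 for FOSL2, −0.17 to 0.050 for JUN, −0.051 to 0.083 for JUNB, −0.12 to 0.067 for JUND, −0.15 to 0.19 for ATF3 and −0.30 to 0.030 for MAFF. In MOLM-13 they were −0.018 to 0.23 for FOS, −0.029 to 0.099 for FOSL2, −0.099 to 0.084 for JUND, −0.71 to 0.00073 for ATF3 and −0.298 to 0.300 for MAFF. Without both MOLM-13 replicate 1 libraries, with or without the block, JUND was −0.084 and MAFF −0.14. With the block and pair 3 left out in MOLM-13, JUNB was −0.029, JUND −0.0049 and MAFF −0.00029. With the block in THP-1, leaving out pair 1 gave −0.046 for FOSL2, 0.072 for JUN, −0.039 for JUNB and 0.016 for JUND, pair 2 gave 0.046 for JUND and −0.32 for ATF3, and pair 3 gave 0.013 for MAFF.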
